A study of Mus musculus with 2 samples.

Results

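Basement membrane genes were examined on the arrays of AIMP3-depleted mouse embryonic stem cells (mESCs). The set holds 10 genes, the laminin chains *Lama1*, *Lama5*, *Lamb1*, *Lamb2* and *Lamc1*, the nidogens *Nid1* and *Nid2*, the heparan sulfate proteoglycans *Hspg2* and *Agrn*, and *Sparc*. Members were chosen by name, as the array features whose listed accession maps to one of these symbols, and all 10 were among the 24022 genes tested. They were measured by 15 probes, all of them above background by the scanner flag everywhere. The mESCs were derived from AIMP3f/f;cre-ERT2 blastocysts. Both *AIMP3* alleles are flanked by loxP sites and Cre is activated by tamoxifen, and control cells carry the same alleles and the same Cre. Cells received 2 μM tamoxifen (4-OHT) for 4 days in LIF-containing medium, whereas control cells received ethanol. RNA from each of 2 AIMP3-depleted replicates was labeled with Cy5 and hybridized against 1 pool of control RNA labeled with Cy3. The labels describe MEF feeder layers as the general culture condition, and the methods describe MEF-conditioned medium for drug incubation.

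Basement membranes are thin sheets of extracellular matrix on which epithelia rest. A laminin is a heterotrimer of 1 α, 1 β and 1 γ chain. Trimers polymerize on the cell surface, nidogens and heparan sulfate proteoglycans link this polymer to the network of type IV collagen, and integrins and dystroglycan anchor it to the cell. Laminin-111, made of the chains encoded by *Lama1*, *Lamb1* and *Lamc1*, is the laminin of the earliest embryonic basement membranes. It is deposited in large amounts by parietal endoderm, together with type IV collagen and SPARC. The α5 chain is found in laminins of many later epithelia and is also made by pluripotent cells.

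Log2 ratios are given as AIMP3-depleted over control, after background correction (limma's normexp) and loess normalization within each array. A gene was called raised or lowered when its mean ratio passed 1.5-fold with an unadjusted p under 0.05 by limma, the threshold of the study. Adjusted p-values are those of limma with Benjamini-Hochberg adjustment over all tested genes. The control is 1 pooled sample, so the spread between control cultures is left out, and the dyes were not swapped, so dye and AIMP3 depletion cannot be told apart for a single gene. Only AIMP3-depleted cells received tamoxifen, so tamoxifen and activated Cre cannot be told apart from loss of AIMP3 either. The labels call the cultures replicates without saying how they were kept apart, so that p-values measure only the spread between these arrays. *Eef1e1*, which encodes AIMP3, had log2 ratios of -0.90 and -0.90 on the arrays of replicates 1 and 2 (adjusted p = 5.08e-05 by limma). By the scanner flag, all 10 mESC markers examined were above background in every channel. Over all tested genes 1327 were raised and 190 lowered, compared with 1944 and 776 from the signals that the scanner software had processed, 2130 and 617 from the deposited table, and 2823 and 65 with median centring.

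Basement membrane genes had unequal ratios in AIMP3-depleted mESCs. Among 10 members, 4 were raised past 1.5-fold (*Sparc*, *Lama1*, *Nid1* and *Lamb1*) and 0 were lowered. Over all tested genes the same rule called 5.52% raised and 0.791% lowered. At 2-fold, 2 members (*Sparc* and *Lama1*) were raised, against 1.17% of all tested genes. *Lama1* was just under 2-fold for replicate 2 (log2 ratio 0.9997) and with the processed signals (0.97), as was *Sparc* with probes averaged (0.98). With the test of the methods in place of limma, 4 members passed 1.5-fold, against 3.6%. Ratios were positive on both arrays for 9 members, and only *Nid2* was negative on both. The median log2 ratio of the members was 0.46 for replicate 1 and 0.40 for replicate 2 and 0.43 for the mean of both arrays, against a median of 0.02 for all tested genes. With median centring the median was 0.82 for the members and 0.18 for all genes. At any fold, all 10 members had an adjusted p under 0.05 by limma, 9 of them higher and 1 lower. The adjusted p of *Nid2* was above 0.05 with the processed signals (0.0676), without the filter on dim probes (0.0826), in the deposited table (0.111) and with median centring (0.16), as was that of *Lama5* without the filter (0.0515). By that rule 30.6% of all tested genes were higher and 23.7% were lower. In bulk RNA a larger share of one kind of cell cannot be told apart from more RNA per cell.

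**Figure D1:**
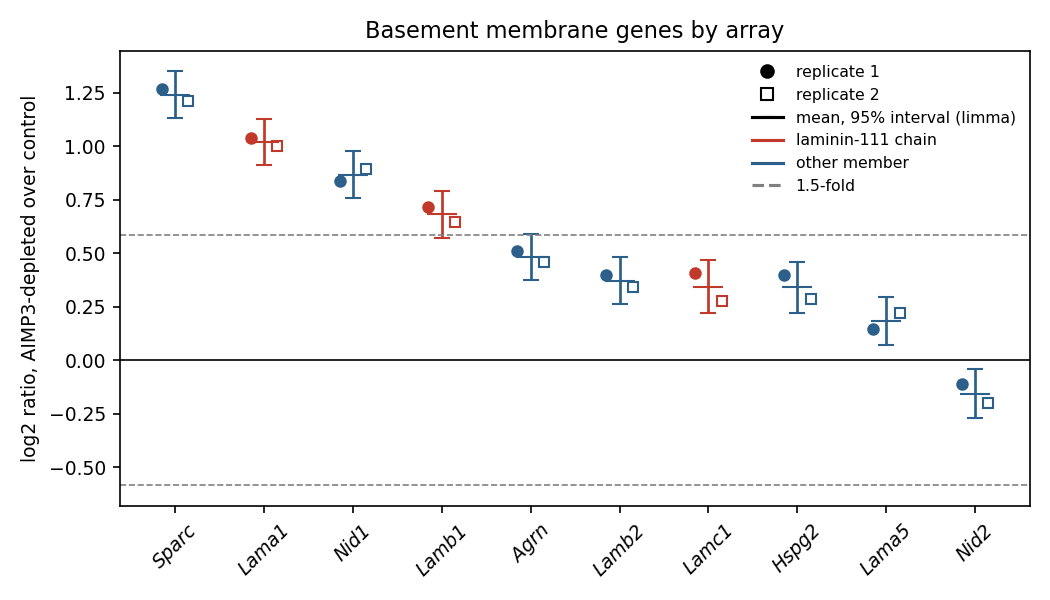
Log2 ratio of AIMP3-depleted over control (vertical axis) for the 10 members, ordered by their mean, with 1 point for each array and bars for the 95% interval by limma; dashed lines mark 1.5-fold. *Sparc*, *Lama1*, *Nid1* and *Lamb1* lie above the upper line on both arrays, and *Nid2* lies below 0 on both.

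The 2 α chains had different ratios, a difference given here without a test. *Lama1*, which encodes the α1 chain of laminin-111, had a normalized log2 intensity of 15.18 and 15.23 in the control channel of the arrays of replicates 1 and 2, and of 16.22 and 16.23 in the AIMP3-depleted channel. Both AIMP3-depleted values lay above both control values, and the log2 ratio was 1.02 ± 0.028 (SD, n = 2), with an adjusted p of 4.20e-05 by limma. This corresponds to a 2.03-fold higher level, and only 1.11% of the tested genes had a higher ratio. *Lama5*, which encodes the α5 chain, was measured at 15.26 and 15.17 in the control and at 15.41 and 15.39 in AIMP3-depleted cells. Its log2 ratio of 0.18 ± 0.053 (SD, n = 2, limma adjusted p = 0.016) was positive for both replicates but did not reach 1.5-fold, and the 95% interval of 0.07 to 0.30 lay entirely below that threshold. The log2 ratio of *Lama1* exceeded that of *Lama5* by 0.89 and 0.78 on the arrays, and by 0.77 to 0.86 over 8 ways of processing the data.

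The same order was found for the β chains. *Lamb1*, which encodes the β1 chain shared by laminin-111 and α5-containing laminins, had a log2 intensity of 15.39 and 15.42 in the control and of 16.10 and 16.07 after AIMP3 depletion. Its log2 ratio was 0.68 ± 0.048 (SD, n = 2), with an adjusted p of 0.000116 by limma. The rise was 1.6-fold and past the threshold on both arrays, and its 95% interval of 0.57 to 0.79 reached just below 1.5-fold (0.58). *Lamb2*, which encodes the β2 chain of neuromuscular and glomerular basement membranes, was measured at 10.57 and 10.47 in the control and at 10.97 and 10.81 in AIMP3-depleted cells. The channels did not overlap, yet the log2 ratio of 0.37 ± 0.040 (SD, n = 2, limma adjusted p = 0.000917) stayed below 1.5-fold. *Lamb1* exceeded *Lamb2* by 0.32 and 0.30 in log2 ratio on the arrays, and by up to 0.53 when arrays were median centred in place of loess.

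*Lamc1* encodes the γ1 chain, the partner of α1 and β1 in laminin-111 and the γ chain of most laminins. Its log2 intensity was 15.20 and 15.14 in the control and 15.61 and 15.42 in AIMP3-depleted cells. The log2 ratio was 0.41 for replicate 1 and 0.28 for replicate 2, so that its SD of 0.092 was the largest of the members (adjusted p = 0.00201 by limma). With a 95% interval of 0.22 to 0.47, *Lamc1* was not raised past 1.5-fold, unlike the other 2 chains of the same trimer. *Lama1* exceeded *Lamc1* by 0.63 and 0.72 on the arrays and *Lamb1* exceeded it by 0.31 and 0.37, while *Lama1* exceeded *Lamb1* by 0.32 and 0.35. The 3 chains of laminin-111 therefore had different ratios, in the order α1, β1 and γ1 on both arrays.

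**Figure D2:**
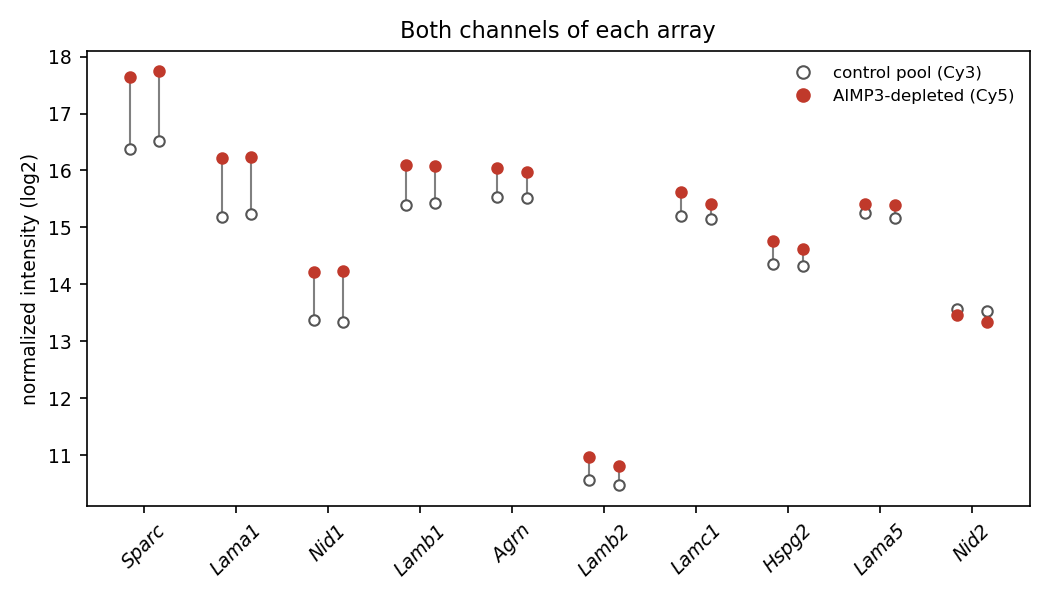
Normalized intensity (log2, vertical axis) of the 10 members in the control pool (open grey) and in AIMP3-depleted cells (filled red), with a line for each array, replicate 1 on the left and replicate 2 on the right of each gene. Intensities depend on the probe and are not compared between genes. The line points upward on both arrays for all members except *Nid2*.

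The nidogens link laminins that contain the γ1 chain to type IV collagen and have overlapping roles in mice. After loess the 2 genes had ratios of opposite sign, of which only that of *Nid1* passed 1.5-fold, by the brightest of its 3 probes and not by their mean (0.57). *Nid1* was measured at 13.37 and 13.33 in the control and at 14.21 and 14.23 in AIMP3-depleted cells, a log2 ratio of 0.87 ± 0.040 (SD, n = 2, limma adjusted p = 5.64e-05) and a 1.82-fold rise. *Nid2* was measured at 13.57 and 13.53 in the control and at 13.46 and 13.33 in AIMP3-depleted cells. Its log2 ratio of -0.16 ± 0.061 (SD, n = 2, limma adjusted p = 0.0309) was small. Median centring turned it to 0.11, where the median over all genes was 0.18. The difference between *Nid1* and *Nid2* was 0.95 and 1.10 on the arrays, and between 0.73 and 1.04 under the 8 ways of processing.

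Perlecan and agrin are the large heparan sulfate proteoglycans of basement membranes. *Hspg2*, which encodes perlecan, had a log2 intensity of 14.36 and 14.33 in the control and of 14.76 and 14.61 in AIMP3-depleted cells, and a log2 ratio of 0.34 ± 0.079 (SD, n = 2), with an adjusted p of 0.00179 by limma. *Agrn*, which encodes agrin, was measured at 15.53 and 15.51 in the control and at 16.03 and 15.97 in AIMP3-depleted cells, and its log2 ratio was 0.48 ± 0.035 (SD, n = 2), with an adjusted p of 0.000346 by limma. Neither gene was raised past 1.5-fold, although the 95% interval of *Agrn*, 0.38 to 0.59, included that threshold. Their order depended on the processing. *Agrn* exceeded *Hspg2* by 0.11 and 0.17 on the arrays after loess, but *Hspg2* exceeded *Agrn* by 0.05 with the scanner's processed signals and by 0.12 when probes were averaged.

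*Sparc* had the largest ratio of the members, except when probes were averaged (0.98, against 1.02 for *Lama1*). It encodes a secreted calcium-binding glycoprotein that binds collagens and is abundant in parietal endoderm and in fibroblasts. Its log2 intensity was 16.38 and 16.53 in the control and 17.65 and 17.74 in AIMP3-depleted cells, and the channels were far apart on each array. The log2 ratio was 1.24 ± 0.040 (SD, n = 2), with an adjusted p of 3.53e-05 by limma, 2.36-fold, and 0.466% of the tested genes had a higher ratio. *Sparc* lay at the 99th percentile of intensity among tested genes, and no spot on the arrays was flagged as saturated (0 spots).

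Ordered by the mean log2 ratio of the brightest probe, the members were *Sparc*, *Lama1*, *Nid1*, *Lamb1*, *Agrn*, *Lamb2*, *Lamc1*, *Hspg2*, *Lama5* and *Nid2*. The array values of neighbours in this order did not overlap, except for *Lamb2* with *Lamc1* and *Lamc1* with *Hspg2*, which cannot be ordered. This order depended on the probe: with probes averaged, *Sparc* fell below *Lama1*, *Nid1* below *Lamb1* and *Agrn* below *Lamb2*. As a group, the 3 laminin-111 chains had a mean log2 ratio of 0.72 for replicate 1 and of 0.64 for replicate 2, compared with 0.49 and 0.46 for the other 7 members. The difference was 0.21, with 0.23 and 0.18 on the arrays, and it was 0.31 when probes were averaged. This difference is given as a description, with no test. *Sparc* and *Nid1* are among the other 7 members and had higher ratios than *Lamb1*, and *Lamc1* had a lower ratio than *Agrn*, so the 2 groups of genes overlapped. When probes were averaged, *Nid1* (0.57) was below *Lamb1* (0.68) and *Agrn* (0.27) below *Lamc1* (0.34).

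Promoter sequences were available for 7 of the 10 members in the RefSeq table (build GRCm38.p6), as 8 windows, with 2 for *Agrn*. They were searched on both strands for 5 motifs in the 250 bases before the start that the promoter table lists, which is not always the outermost annotated start of the gene. The windows of *Sparc* and *Nid1*, both raised, end at the edge of the annotated gene and are shown. The other windows overlap the annotated gene, by 147 bases for *Lamb1*, 45 for *Lama5*, 52 for *Hspg2*, 15 for *Lamb2*, and 45 and all 250 for those of *Agrn*, and are not printed. Those shown lie at chr11:55420081-55420330 (minus strand, *Sparc*) and chr13:13437352-13437601 (plus strand, *Nid1*). Each is printed 5′ to 3′ in the direction of transcription, and capitals mark GGGCGG on either strand, the GC box bound by SP and KLF factors.
Sparc: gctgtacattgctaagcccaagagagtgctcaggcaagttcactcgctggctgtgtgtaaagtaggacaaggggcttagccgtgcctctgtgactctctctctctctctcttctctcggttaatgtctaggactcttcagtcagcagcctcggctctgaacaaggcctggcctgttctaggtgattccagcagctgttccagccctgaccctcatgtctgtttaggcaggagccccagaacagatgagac
Nid1: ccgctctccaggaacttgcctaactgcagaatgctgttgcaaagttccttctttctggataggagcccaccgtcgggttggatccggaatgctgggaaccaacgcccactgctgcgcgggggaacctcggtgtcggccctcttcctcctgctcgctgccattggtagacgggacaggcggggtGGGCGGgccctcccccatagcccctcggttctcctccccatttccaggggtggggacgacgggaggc

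The GC box occurred 0 times in the *Sparc* window, 1 time in that of *Nid1*, 2 times in that of *Lamb1* and 4 times in that of *Lama5*. Of the others, *Hspg2* had 5 GC boxes, *Agrn* had 12 in 1 window and 2 in the other, and *Lamb2* had 0. At least 1 GC box was present in 32.7% of all 32851 windows, and 4 or more in 4.09%. The GC box was singled out after its matches were seen. The G and C content was 54% for *Sparc*, 62% for *Lamb1*, 64.4% for *Nid1*, 72.4% for *Lama5*, 70% for *Hspg2*, and 83.6% and 60.8% for the windows of *Agrn*. That of *Lamb2* was 43.6%, the only one below the median of 52.4% for all windows. The other 4 motifs were present in 0 of the 8 member windows. The core promoter element TATAAA was held by 12.4% of all windows. The sequence AGATAA, recognized by zinc finger factors of the *Gata6* family, was held by 9.99%. ATTGTT, recognized by the *Sox17* family, was held by 9.42%. TGANTCA, recognized by dimers of Fos and Jun proteins, was held by 6.75%. A match is a run of letters and not a measured binding site, and the start sites used by these cells were not measured.

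Several probes were present for 4 members, and they did not give the same ratio. For *Sparc*, the brighter probe gave log2 ratios of 1.27 and 1.21 and the dimmer one 0.68 and 0.74, and both passed 1.5-fold on both arrays. For *Nid1*, the brightest probe gave 0.84 and 0.90, the next 0.63 and 0.53, and the dimmest 0.23 and 0.32. All 3 *Nid1* probes were positive on both arrays, and the mean of the probes, 0.57, was just under 1.5-fold. The dimmer *Agrn* probe gave 0.06 and 0.05 (adjusted p = 0.328 by limma over all probes), far from the 0.51 and 0.46 of the brighter one. The *Hspg2* probes gave 0.40 and 0.29 for the brighter and 0.56 and 0.33 for the dimmer. The background correction adds an offset of 50 to each signal, which pulls ratios of dim probes towards 0. With the processed signals, which carry no such offset, the dim *Nid1* probes gave 0.70 and 0.45 and the dim *Agrn* probe -0.05.

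**Figure D3:**
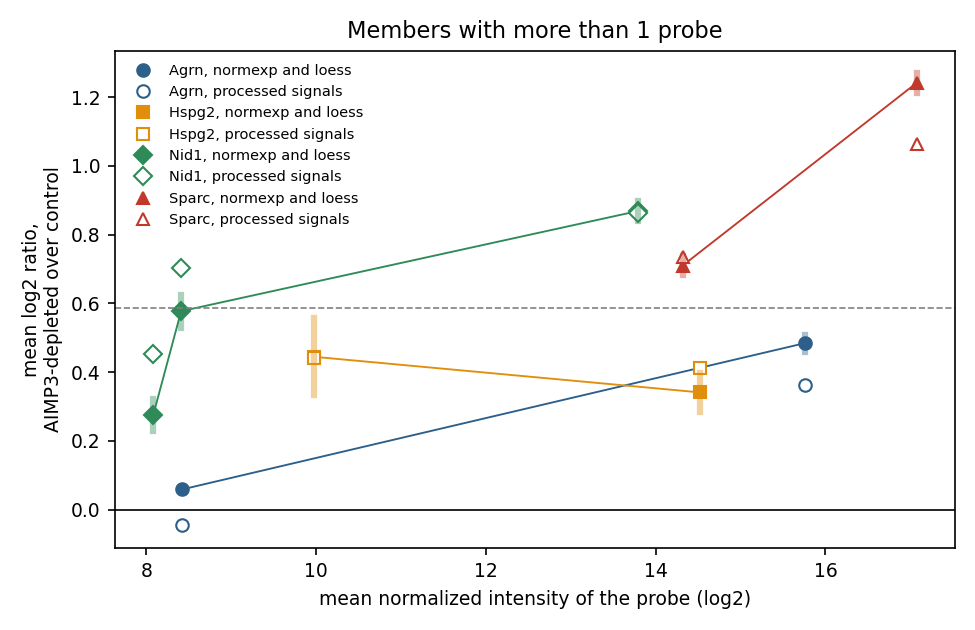
Mean log2 ratio (vertical axis) against the mean normalized intensity of the probe (log2, horizontal axis) for the 4 members with more than 1 probe. Filled symbols are values after normexp and loess with a thick bar between the arrays, open symbols are values from the processed signals, and the dashed line marks 1.5-fold. The dimmest *Nid1* and *Agrn* probes lie below the brighter probes of the same genes.

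The members are bright, and 7 of 10 lie in the brightest 10% of tested genes. After loess, the genes of this brightest part had a median log2 ratio of 0.01, and 4.79% of them were raised. With median centring, which leaves the trend with intensity in place, their median was 0.40 and 29.7% were raised. Under that setting 7 members were raised, because *Lamc1* (0.74), *Hspg2* (0.68) and *Agrn* (0.91) passed 1.5-fold as well, while 11.8% of all genes were raised. The 4 genes raised after loess had positive ratios past 1.5-fold with the processed signals, without background subtraction and in the authors' deposited table. In that table, *Lama1* had 1.04 and 0.98 on the arrays of replicates 1 and 2, *Lamb1* had 0.74 and 0.72, *Nid1* had 0.88 and 0.92, and *Sparc* had 1.12 and 1.08.

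**Figure D4:**
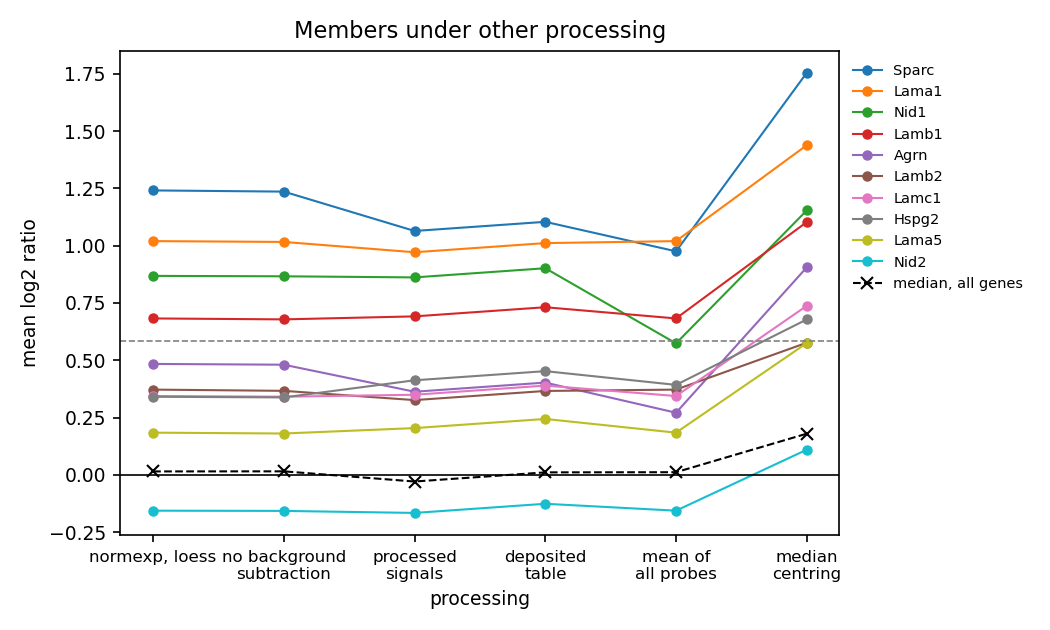
Mean log2 ratio of each member (vertical axis) under 6 ways of processing (horizontal axis), with the median of all tested genes as crosses and 1.5-fold as a dashed grey line. *Nid2* lies lowest throughout, *Sparc*, *Nid1* and *Agrn* drop when probes are averaged, and median centring shifts all members upward together with the median of all genes.

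Other components of the basement membrane were examined with 5 lists, 54 genes in all, of which 47 were tested. Among these, 15 were raised, 0 were lowered and 32 did not pass the threshold, with a median log2 ratio of 0.23. With median centring 19 were raised and the median was 0.48, and with probes averaged 11 were raised. Type IV collagen forms the second network of the basement membrane. Of 8 collagen genes of this compartment 6 were tested and 4 were raised. *Col4a1* (1.24) and *Col4a2* (1.05), which encode the 2 chains of the ubiquitous form and were positive on both arrays, had ratios close to those of *Sparc* and *Lama1*. *Col4a5* (0.83) and *Col4a6* (0.62) were raised too, but *Col4a6* was at 0.32 when its probes were averaged. *Col18a1*, which encodes type XVIII collagen, was at 0.23 and did not reach 1.5-fold, except with median centring (0.65).

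Of the 6 other laminin chains 5 were tested, 1 of them was raised, and their median was 0.21. The log2 ratios of *Lama3* and *Lamb3*, which encode chains of epithelial laminins, were -0.08 (0.04 with median centring) and 0.21, and neither passed the threshold. Among 15 other basement membrane proteins 12 were tested, 2 of them raised, and the median was 0.15. These were *Fbln2* (1.07), which encodes the laminin- and nidogen-binding fibulin-2, and *Tinagl1* (0.88), which encodes a matrix protein related to tubulointerstitial nephritis antigen.

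Laminin receptors were measured for 10 of 11 genes, and 3 were raised. These were the integrin subunits *Itgb4* (0.74), *Itgb1* (0.63) and *Itga3* (0.60), of which *Itga3* stayed below 1.5-fold with the processed signals (0.56) and *Itgb1* when its probes were averaged (0.51) and, narrowly, with the processed signals (0.58). The ratio of *Itga6*, the α partner of β4, was -0.06 (0.36 with median centring), and that of *Dag1*, which encodes dystroglycan, was 0.02 (-0.01 with the processed signals). Among 14 enzymes and chaperones of matrix assembly, all of them tested, 5 were raised. They included *Lox* (1.05) and *Loxl2* (0.69), which encode lysyl oxidases that cross-link collagen, *Serpinh1* (0.69), which encodes the collagen chaperone HSP47, and *Ndst1* (0.69), which encodes a sulfotransferase of heparan sulfate. When probes were averaged, *Loxl2* was at 0.54 and *Ndst1* at 0.33, under the threshold. The fifth, *P4ha2* (0.64), which encodes a subunit of prolyl hydroxylase, was named after its value was seen.

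**Figure D5:**
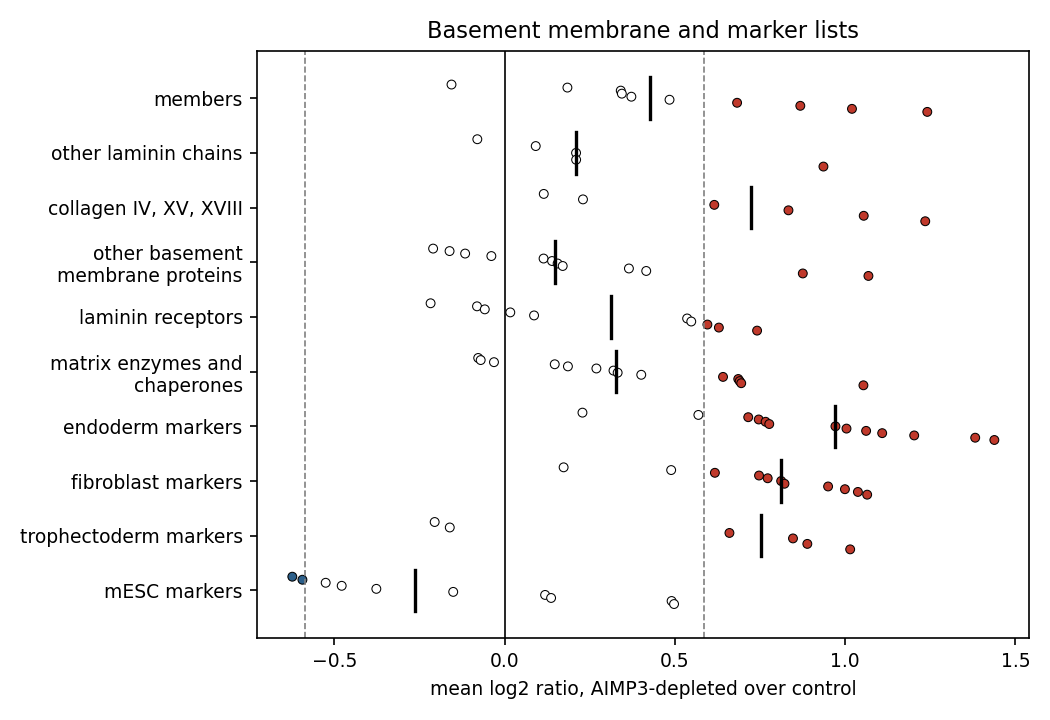
Mean log2 ratio of AIMP3-depleted over control (horizontal axis) for each tested gene of the members, of the 5 other basement membrane lists and of 4 marker lists (vertical axis). Red points are raised, blue points are lowered and open points did not pass the threshold; vertical bars are list medians and dashed lines mark 1.5-fold. The medians of the endoderm (0.97), fibroblast (0.81) and trophectoderm (0.75) markers lie to the right of that of the members (0.43).

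Markers of other cell types were measured in the same samples. All 13 endoderm markers were tested, 11 were raised and their median ratio stood at 0.97, with *Sox17* at 1.44, *Gata6* at 1.20 and *Gata4* at 0.77. The median log2 intensity of these 13 genes was 8.85 in the control and 9.78 in AIMP3-depleted cells, and none of the 13 was at background in either channel. Within the list, log2 intensities ran from 7.70 to 11.93 in the control and from 8.81 to 12.94 in AIMP3-depleted cells. Of 12 fibroblast markers 11 were tested and 9 were raised, whereas *Lum* was not well above background. Their median log2 ratio was 0.81, and their median log2 intensity was 9.34 in the control and 9.83 in AIMP3-depleted cells. *Col1a1* was at 1.06, *Col3a1* at 0.95 and *Thy1* at 0.17. Of 7 trophectoderm markers 6 were tested and 4 were raised, with *Cdx2* at 0.66. The other 2 tested, named after their values were seen, were *Eomes* (-0.16) and *Tfap2c* (-0.21, 0.05 with median centring). Among 10 mESC markers 2 were lowered, 0 were raised and 4 had a positive mean ratio, with log2 ratios of -0.48 for *Pou5f1*, -0.53 for *Sox2* and -0.38 for *Nanog*. *Pou5f1* was at -0.64 for replicate 1 and -0.32 for replicate 2, and *Nanog* was at -0.16 when its probes were averaged. With median centring, *Pou5f1*, *Sox2* and *Nanog* were at -0.26, -0.29 and -0.17. The 2 lowered markers, named after their values were seen, were *Dppa3* (-0.62) and *Tdgf1* (-0.59). The 4 with a positive ratio, named likewise, were *Dppa5a* (0.50), *Tbx3* (0.49), *Klf4* (0.14) and *Esrrb* (0.12), none of them past 1.5-fold after loess. With median centring, *Dppa3* (-0.41) and *Tdgf1* (-0.20) were within 1.5-fold, and *Dppa5a* (1.03) and *Tbx3* (0.72) were beyond it. The part of endoderm-like cells, of fibroblasts and of trophectoderm-like cells in the ratios of the basement membrane genes was not tested.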

How the data were processed

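For 2 arrays, the authors deposited scanner output of Feature Extraction (version 11.5.1.1 per the file headers; the methods name another version). These deposited files give spot intensity in each channel, with the local background already measured by the authors' software but not subtracted from the median signals. The deposited log10 ratios and processed signals were made by the same software, per the file headers, after background subtraction and dye normalization. Flags per spot come from it too. The authors' log2 table was made in GeneSpring and equals the scanner ratio plus 0.040 and 0.039 (medians per array), a shift whose origin is not given in the sources used here.

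Here, median signals were corrected with normexp (limma, offset 50) and normalized by loess. Control spots were excluded, as were 215 and 227 outlier spots, and replicate spots were averaged. Probes entered the test when flagged above background in 1 or both channels of each array (33012 of 55681 probes); for probes with several spots, a tie counted as above, a rule set after values were seen. The brightest probe stands for a gene. Accessions were named through RefSeq (GRCm38.p6); gene coordinates are not printed, since the array design used a different build. Mean ratios were tested against 0 with lmFit and eBayes (1 residual and 5.25 prior degrees of freedom). Median signal over background was 2.68 to 3.31, and precision is limited by having 2 arrays.

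Members and gene lists were chosen with earlier results of these data known, and motifs, pairs of members and the brightest 10% after values were seen. Named genes are all members, *Eef1e1*, up to 4 genes past the threshold and up to 2 others per list, and fixed markers. No gene was named for a pattern like a member's, since 2 arrays of 1 condition give none. A gene of the lists is not reported here by name. The steps were also run on data simulated from the Cy3 signals of the same arrays. That run holds no difference between cultures, so it is no test of the calls given here. Software was R 4.3.3 with limma 3.58.1.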

Additional observations from a re-analysis of the deposited data

How the results depend on the processing

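Across 90 combinations of a member and an alternative (background correction, dye normalization, filter, probe rule, the authors' deposited table and each replicate left out), 85 kept their direction and their side of the threshold. Not all of these could differ. All 15 member probes were above background everywhere, so the other filters left the member ratios unchanged. Averaging probes cannot change the 6 members with 1 probe. The deposited table equals the scanner ratio plus a shift, so it repeats the processed signals. The ranges over 8 ways of processing hold the same repeats. With median centring, *Nid2* was at 0.11, *Lamc1*, *Hspg2* and *Agrn* passed the threshold, 7 members and 10 of the 15 member probes were raised (4 and 5 after loess), the median of the members was 0.82, and the laminin-111 chains exceeded the others by 0.27. With the mean of all probes, *Nid1* fell under the threshold, the median was 0.38 and that difference was 0.31. At a 2-fold threshold 2 members and 4 of the other basement membrane genes were raised, as were 1.17% of all tested genes. Without either replicate, as values with no test, 4 members and 14 to 16 of the other basement membrane genes passed 1.5-fold. The share of all tested genes that passed by fold alone was not counted, so these counts have no background. The median lay between 0.40 and 0.46, the difference between 0.18 and 0.23, and *Eef1e1* between -0.90 and -0.90. With the methods' t-test on the ratios, 4 members and 14 of the other genes passed, as did 3.6% of all tested genes. No paired analysis was possible because both arrays share 1 control pool. The ratios of dim probes, with little signal over background, are pulled towards 0 by the offset.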
